A study of Rattus norvegicus with 14 samples.

Results

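The genes described here are those whose level lay on the same side of 0 in every rat when the operated side was compared with the unoperated side of the same animal. They were chosen by the sign of that difference alone. A gene entered if it had at least 10 estimated counts in at least 7 of the 14 libraries, and it was kept if its log2 CPM (counts relative to the scaled size of the library) was higher on the surgical side in all 7 rats or lower in all 7. Of 30562 genes in the table, 16284 passed the count minimum and 196 of those kept one sign, which is 1.2% of the genes tested. There were 73 genes higher in 7 of 7 rats (0.448% of the genes tested) and 123 lower in 7 of 7 (0.755%). Since the sides of the same rats selected these genes, their direction is a description and carries no test. Random signs with equal odds in each of 7 pairs would give no smaller share, so membership alone does not show an effect of the operation.

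All 7 rats were male and wild type, and RNA came from dorsal root ganglia L2 to L5. In each animal the extensor digitorum longus, a muscle of the lower leg, had been grafted to the saphenous nerve of one hindlimb (surgical side), and the other hindlimb was unoperated (control side). The 6-week group was made up of rats A, B and E, with 3 libraries per side, and the 8-week group of rats C, D, G and H, with 4 libraries per side. The control side came from an operated animal, and no side with an operation but no graft is analysed here, so an effect of cutting the nerve and an effect of the muscle target cannot be told apart.

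The ganglia hold the cell bodies of sensory neurons, wrapped by satellite glia and joined by Schwann cells, vessels and immune cells. The saphenous nerve serves skin of the leg. Sensory neurons whose axons have been cut change their transcription over days to weeks, with higher injury-response and neuropeptide genes and lower channel and receptor genes, and contact with a new peripheral target can alter this programme. L2 to L5 ganglia also hold many neurons whose axons run in other nerves, so the RNA of a surgical library is a mixture of operated and unoperated neurons.

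Estimated counts per library ranged from 18489118 to 28237574. Neuronal markers were present in every library, with a mean log2 CPM from 6.85 to 9.23 on the control side and from 6.09 to 9.17 on the surgical side, and none of the 16 was at 0 in any library. The neuronal level was lower on the surgical side by 1.76 in rat A and higher by 1.21 in rat B, and it differed by 0 in rat E and 0.01 in rat D. Skeletal muscle markers (18 of 20 in the table, none at 0) were highest on the surgical side of rat C, at 10.21, and on the control side of rat H, at 8.15, with pair differences of 8.17 and -6.04. Spinal cord and central glia markers were highest on the surgical side of rat B, at 6.96, a pair difference of 4.42. In 13 lists of cell type markers 170 genes were tested, and 0 of them kept one sign in all 7 rats.

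Genes that were higher on the surgical side in 3 or 4 of the 7 rats were the most common, at 4791 and 4339, and 805 and 648 genes missed the rule by a single rat. Differences of the members were mostly small. The median of the 7 pair differences had a median size of 0.25 among the 73 higher and 0.24 among the 123 lower genes, beside 0.12 over all genes tested. It exceeded 1 in size in 4 higher and 4 lower genes, beside 182 of all 16284 genes. In the weakest of the 7 pairs the median size was 0.05 among the higher and 0.04 among the lower genes. Over all genes, whatever the signs, it was 0.05, so the weakest pair of the members was no larger than that of genes in general. Differences beyond the 95% interval of counting error in all 7 pairs, whatever their sign, were less common among the members than over all genes: 1 of the 73 higher genes (1.37%, Slc44a1) and 5 of the 123 lower genes (4.07%, Rgs10, Sncg, Ppp1r2, Ifi27 and Chmp3), beside 1533 of 16284 genes tested (9.41%). That interval covers counting error only. In 13 of the 73 higher and 15 of the 123 lower genes at least 1 library held under 10 counts, beside 1822 of all 16284 genes.

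**Figure D1:**
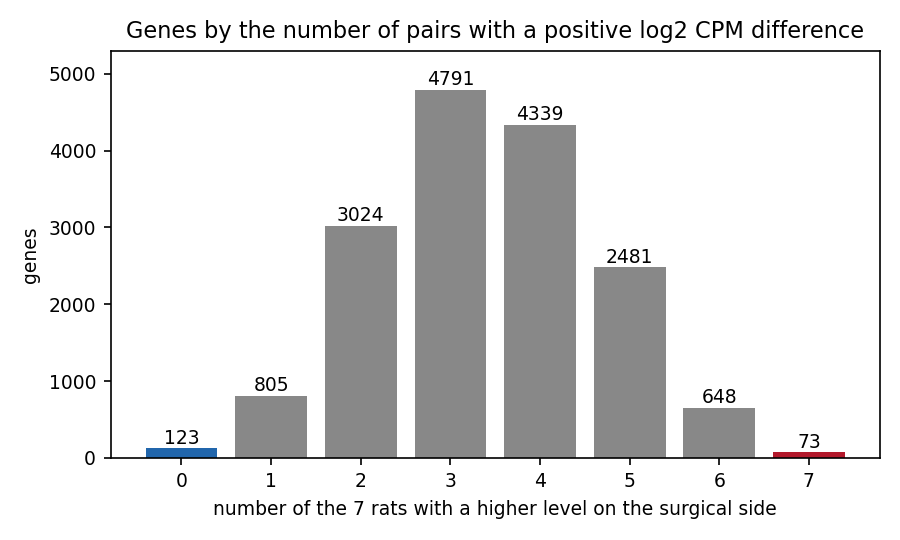
Number of genes (vertical axis) by the number of the 7 rats in which the log2 CPM was higher on the surgical side (horizontal axis), over 16284 genes. The coloured bars are the 123 genes lower in all rats and the 73 genes higher in all rats, and the grey bars are genes with both signs.

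For 7 genes (0.043% of the genes tested) the 7 control and 7 surgical libraries did not overlap at all, and all 7 are among the 196. Stac2 and Thap2 were higher on the surgical side, and C10h17orf67, LOC102555109, Mettl21a, Nedd8 and Cops9 were lower. The rule used the same contrast, so this share is given as background only.

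Stac2 (ENSRNOG00000004805) encodes an adaptor that binds voltage-gated calcium channels, and it had the largest median difference of the higher genes. The lowest, median and highest log2 CPM were -0.97, -0.29 and 0.39 in the control libraries and 0.64, 2.67 and 4.99 in the surgical libraries. Every surgical library stood above every control library, with rat C nearest to the controls and rat B farthest. The pair differences were 1.72, 5.27 and 2.55 in rats A, B and E at 6 weeks and 3.05, 0.83, 4.32 and 4.75 at 8 weeks in rats D, C, G and H, with a median of 3.05. In TPM, which are adjusted for transcript length, the gene averaged 0.297 ± 0.09 (SD, n = 7) on the control and 4.57 ± 4.29 (SD, n = 7) on the surgical side. For the related adaptor gene Stac the surgical side was the higher one in 2 of 7 rats, with a median difference of -0.14.

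Pde6b (ENSRNOG00000000065), a subunit of the cyclic GMP phosphodiesterase known from rod photoreceptors, had a median difference of 1.49, below those of Stac2 and of the predicted gene LOC500180 (1.73). Its lowest, median and highest log2 CPM were -2.92, -2.31 and -0.44 in control and -1.98, 0.77 and 1.92 in surgical libraries. The surgical libraries of rats A and C lay within the control range and the other 5 lay above it. The pair differences ran from 0.35 in rat A to 4.45 in rat H, and counts were low, from 1 to 91 per library.

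Ssc5d (ENSRNOG00000016687), a secreted protein with scavenger receptor cysteine-rich domains, stood at a lowest, median and highest log2 CPM of 2.71, 3.05 and 3.43 in control and 3.26, 3.63 and 4.09 in surgical libraries. The ranges overlapped, and 5 surgical libraries exceeded the highest control library. Its pair differences ran from 0.22 in rat C to 1.15 in rat H, with a median of 0.52. In TPM the pair of rat C pointed the other way.

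Cdk18, a cyclin-dependent kinase of the PCTAIRE group, was between 0.17 and 1.42 higher in 6 rats and 3.2 higher in rat B, where spinal cord markers were also high. The part of those markers in its value was not tested. Its median was 0.62 over all rats and 0.36 without rats B, C and H. Thap2, which carries a zinc-binding THAP domain, had a lowest, median and highest log2 CPM of 0.91, 1.18 and 1.24 in control and 1.27, 1.39 and 2.01 in surgical libraries, and the weakest pair was 0.02 in rat A. Its median of 0.43 was 0.19 in TPM and 0.20 without rats B, C and H. Draxin, a secreted axon guidance protein, had a median difference of 0.84 at low level, with a mean of 0.115 ± 0.0763 TPM (SD, n = 7) on the control and 0.248 ± 0.0699 TPM (SD, n = 7) on the surgical side. Vangl2, a membrane protein of planar cell polarity, had a median difference of 0.66 and its largest pairs in rats B (2.16) and C (2.45).

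Other higher genes chosen for a large weakest pair were Mbd4, a DNA glycosylase that binds methylated CpG, Syne3, a nesprin of the nuclear envelope, Fignl2, a microtubule-severing ATPase, Qser1, Ankrd16, Thada, Sec14l5, and the phosphatase 1 regulators Ppp1r16b and Phactr4. Their median differences ran from 0.14 for Thada to 0.44 for Qser1. Qser1 had pair differences from 0.11 in rat H to 0.68 in rat B and a mean of 1.18 ± 0.381 TPM (SD, n = 7) on the control and 1.52 ± 0.168 TPM (SD, n = 7) on the surgical side. Slc44a1, a choline transporter, had pair differences from 0.07 in rat C to 0.25 in rat H and averaged 59.0 TPM on the control side. Of these genes Syne3 moved from a median of 0.41 to 0.21 and Thada from 0.14 to 0.06 with the length trend removed, and Ankrd16 from 0.19 to 0.07 in TPM.

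**Figure D2:**
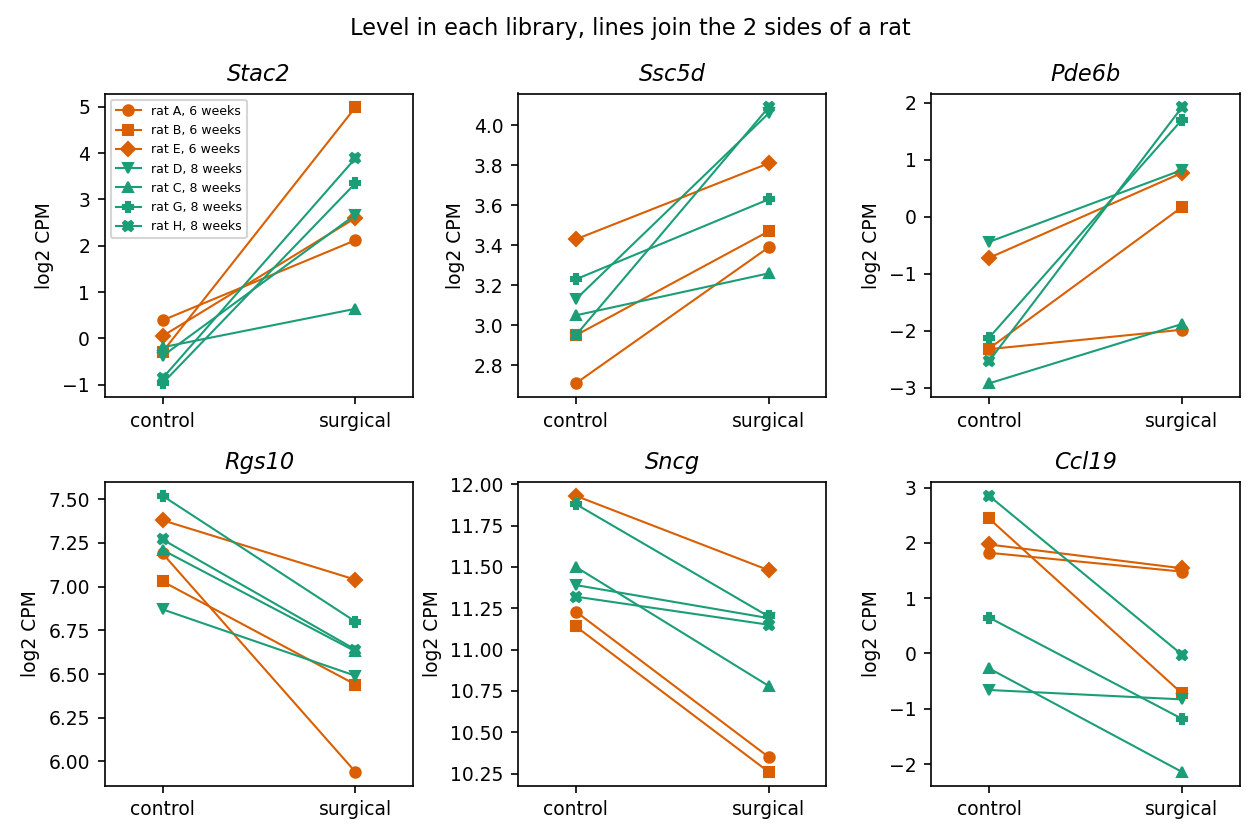
Log2 CPM (vertical axis) of 3 higher genes (top row) and 3 lower genes (bottom row) on the control and surgical side, each line joining the sides of 1 rat. All 7 lines of a panel slope one way because the genes were chosen for it, and only Stac2 shows separate ranges.

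Among the lower genes, Rgs10 (ENSRNOG00000042592) speeds the switching off of inhibitory G proteins. Its lowest, median and highest log2 CPM were 6.87, 7.21 and 7.52 in control and 5.94, 6.63 and 7.04 in surgical libraries. The ranges overlapped, with the surgical libraries of rats E and A at the top and bottom of their side. Pair differences were -1.26, -0.59 and -0.35 in rats A, B and E and -0.38, -0.58, -0.72 and -0.63 in rats D, C, G and H. The mean was 252 ± 77.9 TPM (SD, n = 7) on the control and 165 ± 53.4 TPM (SD, n = 7) on the surgical side. In this bulk RNA, fewer cells of a type and less RNA per cell cannot be told apart.

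Sncg (ENSRNOG00000058006), gamma-synuclein, is an abundant protein of sensory neurons, and its mean of 6750 ± 2480 TPM (SD, n = 7) on the control side was the highest of all 196 genes. Its lowest, median and highest log2 CPM were 11.14, 11.39 and 11.93 in control and 10.26, 11.15 and 11.48 in surgical libraries. The sides overlapped, and the pair differences ran from -0.88 in rats A and B to -0.17 in rat H, with a median of -0.68. That median was -0.36 in TPM, -0.41 with the neuronal level removed and -0.22 with the length trend removed, where the gene no longer kept one sign. Fxyd2 (ENSRNOG00000016469), a regulatory subunit of the sodium pump found in subsets of these neurons, stood at 7.05, 7.98 and 8.64 in control and at 6.33, 7.30 and 7.93 in surgical libraries. Its pair differences ran from -1.34 in rat G to -0.05 in rat E, with a median of -0.75, which was -0.49 with the length trend and -0.45 with the neuronal level removed, and it kept one sign in neither. Fxyd7, a related subunit gene, had 5 of 7 pairs above 0. The neuronal marker level was 1.76 lower on the surgical side of rat A and 1.21 higher on that of rat B. In log2 CPM Rgs10, Sncg and Fxyd2 were lower in both rats, by 0.59 to 1.26, while in TPM Rgs10 was higher in rat B. The part of neuronal content in these values was not tested.

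Galr2, a receptor for the neuropeptide galanin, was lower in all 7 rats by a median of 0.40, with log2 CPM from 2.92 to 4.19 in control and 2.52 to 3.56 in surgical libraries. Rat D was the weakest pair, with a difference that rounds to 0.0. In TPM Galr2 was higher on the surgical side of rats B and E, and with the length trend removed it no longer kept one sign. The ligand gene Gal was higher in 6 of 7 rats, with a median difference of 1.17, and was not among the 196 because rat C was lower by 1.22. Galr1, another galanin receptor gene, was higher in 3 of 7 rats.

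Ccl19 (ENSRNOG00000015668), a chemokine that attracts T cells and dendritic cells, had a lowest, median and highest log2 CPM of -0.66, 1.82 and 2.85 in control and -2.14, -0.72 and 1.54 in surgical libraries. The sides overlapped widely, and rats B and H fell farthest apart, with differences of -3.17 and -2.87, while rat D differed by -0.17. The median of -1.83 was -0.39 without rats B, C and H. Skap1, an adaptor of T cell receptor signalling, had a median difference of -0.70 and averaged 1.74 ± 0.488 TPM (SD, n = 7) on the control and 0.981 ± 0.227 TPM (SD, n = 7) on the surgical side. Markers of T, B and NK cells (17 of 18 in the table, none at 0) had pair differences from -0.85 to 1.97, with 4 of 7 above 0. Cd3e, a defining T cell gene, was likewise higher in 4 of 7.

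Actg2, the smooth muscle gamma-actin, had a median difference of -0.86 and ran from -3.27 in rat G to -0.18 in rat D; without rats B, C and H the median was -0.46. The smooth muscle genes Acta2 and Myh11 each had 3 of 7 pairs above 0, with a median of -0.41 each, and Cnn1 was higher in 1 of 7 with a median of -0.89. Their largest negative pairs were in rats C and G, as for Actg2. The part of smooth muscle content in the Actg2 values was not tested.

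C10h17orf67, an open reading frame of unassigned function, had no overlap between the sides, with log2 CPM from -0.87 to 0.68 in control and -2.47 to -1.31 in surgical libraries, at 2 to 36 counts per library. Its median difference of -1.29 was -0.78 with the length trend removed and -0.72 without rats B, C and H. Nedd8, a ubiquitin-like modifier attached to cullins, also separated, from 7.05 to 7.36 in control and 6.75 to 7.03 in surgical libraries, although its pair differences were only -0.05 to -0.47. Cops9, a subunit of the signalosome that removes Nedd8 from cullins, was lower by a median of 0.28, from 5.91 to 6.32 in control and 5.67 to 5.90 in surgical libraries. Mettl21a, a methyltransferase that acts on Hsp70 chaperones, stood between 1.68 and 1.97 in control and 1.35 and 1.65 in surgical libraries. For Nedd8, Cops9 and Mettl21a the highest surgical library came close to the lowest control library. Neither in TPM nor with the length trend removed did Nedd8, Cops9 or Mettl21a keep one sign, whereas C10h17orf67 kept it in both.

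The remaining lower genes named by size were Ccdc68, a centriole protein, Bpifb5, Spink8, a Kazal-type protease inhibitor, Rbp2, a cellular retinol-binding protein, Calhm5, a calcium homeostasis modulator, B3galnt1, a glycosyltransferase, and Cars2, the mitochondrial cysteinyl-tRNA synthetase. Their median differences ran from -0.88 for Spink8 to -0.28 for Cars2. Ifi27, an interferon-inducible gene, had pairs from -0.72 in rat B to -0.09 in rat D and averaged 659 ± 231 TPM (SD, n = 7) on the control and 505 ± 186 TPM (SD, n = 7) on the surgical side.

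**Figure D3:**
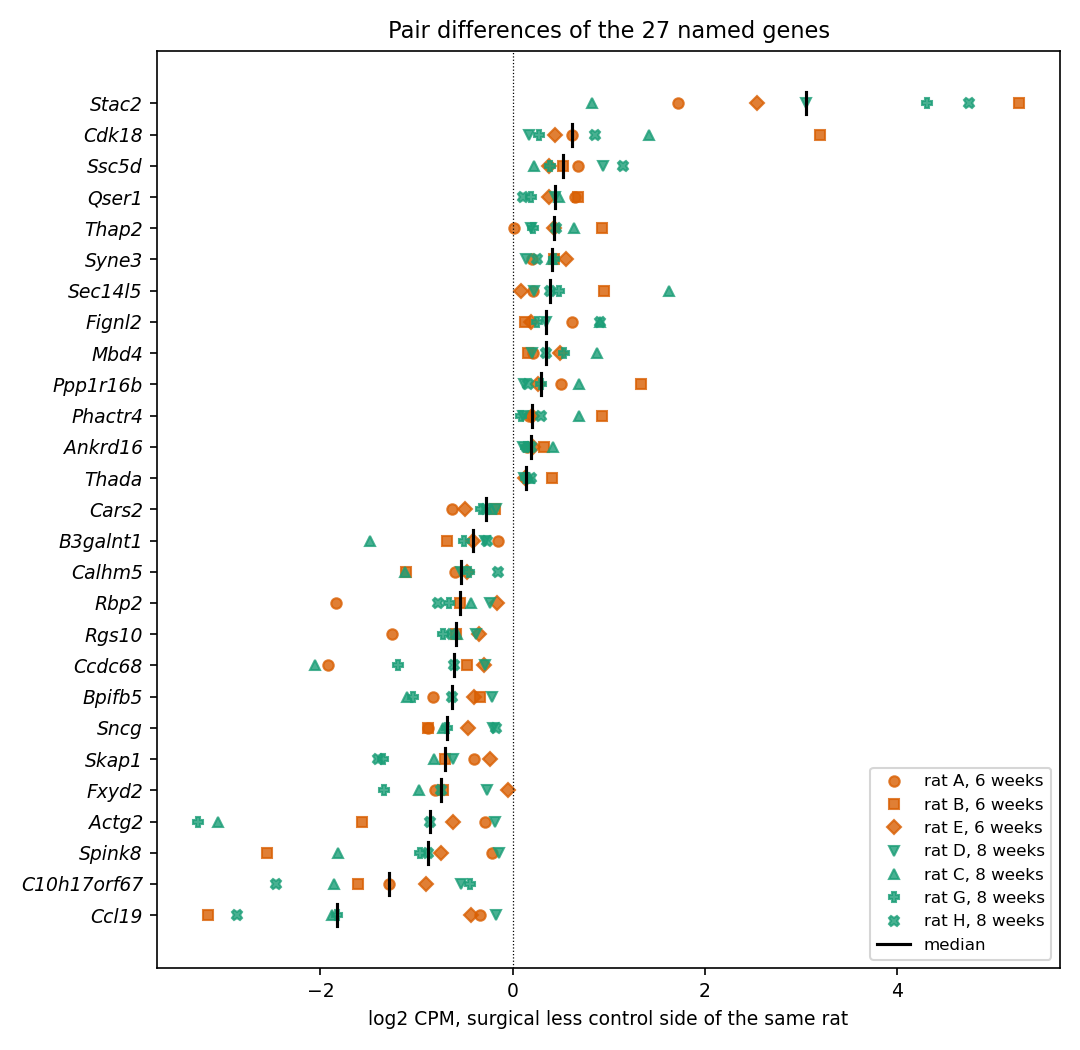
Surgical less control log2 CPM of each rat (horizontal axis) for 27 named genes (rows), with 6-week rats in orange, 8-week rats in green and the median of the 7 rats as a black bar. Points lie on one side of 0 by the choice of the genes, and single rats stand far out for Cdk18 (rat B, 3.2) and Rbp2 (rat A, -1.84).

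Promoters were compared because members that share a direction might share sequence near the start site. RefSeq promoter windows (assembly GRCr8) were matched by symbol for 56 of the 73 higher and 101 of the 123 lower genes, and for 11972 of all genes tested. Each window took the 250 bases upstream of the start. Median GC content was 63.4% in the higher, 56.4% in the lower and 59.6% in all genes. Windows of 4 genes described above are shown, 1 higher and 3 lower, as examples that differ widely in GC content. Capitals mark the motifs searched, on either strand: the GC box GGGCGG, the CCAAT box CCAAT and the SOX site ACAAAG or ACAATG.
Ssc5d, higher, chr1:77938575-77938824, minus strand: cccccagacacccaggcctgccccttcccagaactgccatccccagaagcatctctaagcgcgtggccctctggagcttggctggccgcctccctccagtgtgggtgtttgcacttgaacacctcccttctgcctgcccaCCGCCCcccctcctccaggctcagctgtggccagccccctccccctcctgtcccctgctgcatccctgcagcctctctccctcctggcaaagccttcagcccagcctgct
Rgs10, lower, chr1:192418078-192418327, minus strand: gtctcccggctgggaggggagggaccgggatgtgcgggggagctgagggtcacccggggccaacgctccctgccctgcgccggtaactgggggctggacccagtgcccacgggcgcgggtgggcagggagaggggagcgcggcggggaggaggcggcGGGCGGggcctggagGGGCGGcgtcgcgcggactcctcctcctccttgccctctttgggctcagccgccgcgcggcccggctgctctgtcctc
Sncg, lower, chr16:9711337-9711586, minus strand: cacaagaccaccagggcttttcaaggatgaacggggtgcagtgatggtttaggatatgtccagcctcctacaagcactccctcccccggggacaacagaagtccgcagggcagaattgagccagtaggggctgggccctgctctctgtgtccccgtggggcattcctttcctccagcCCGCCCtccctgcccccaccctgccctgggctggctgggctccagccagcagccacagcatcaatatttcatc
Ccl19, lower, chr5:61761165-61761414, minus strand: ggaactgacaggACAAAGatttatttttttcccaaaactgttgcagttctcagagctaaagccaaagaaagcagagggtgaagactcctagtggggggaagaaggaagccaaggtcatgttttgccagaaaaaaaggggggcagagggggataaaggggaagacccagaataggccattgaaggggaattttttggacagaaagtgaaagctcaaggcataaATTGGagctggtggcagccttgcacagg

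The GC content of these windows was 67.2% for Ssc5d, 77.6% for Rgs10, 61.6% for Sncg and 47.2% for Ccl19. A GC box stood in 62.5% of the higher, 53.5% of the lower and 56.0% of all windows, and a CCAAT box in 35.7%, 38.6% and 34.9%. The ETS site CCGGAAG was in 0 of 56 higher windows, 13.9% of lower and 13.5% of all windows. A TATAAA box was in 1.79% of higher, 8.91% of lower and 6.94% of all windows. The AP-1 site, TGACTCA or TGAGTCA, which is bound by the injury-induced factors ATF3 and JUN, was in 1.79%, 1.98% and 3.21%. Matches describe these letters in these windows only, and no motif was tested.

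Function was compared through 71 lists of genes, in which 19 of the 73 higher (26.0%) and 38 of the 123 lower genes (30.9%) stood, beside 24.6% of all genes tested. No member stood in 46 of the 71 lists. Lists of gene families, among them all with 2 or more members, were matched by the pattern of the symbol and not by function. Related genes under other symbols were not counted. Of the lists with several members, those of the mitochondrial ribosome, of mitochondrial import and of the proteasome held lower genes only. Outside the 71, 2 lists were added after the values were seen: histone lysine demethylases and methyltransferases, with 6 higher genes of 67, and N-acetyltransferases with methyltransferase-like genes, with Mettl21a and Naa38 lower of 35 tested. These lower genes were 5.71% of the 35, beside 0.755% of all genes, and with the length trend removed 0 of the 35 kept one sign.

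**Figure D4:**
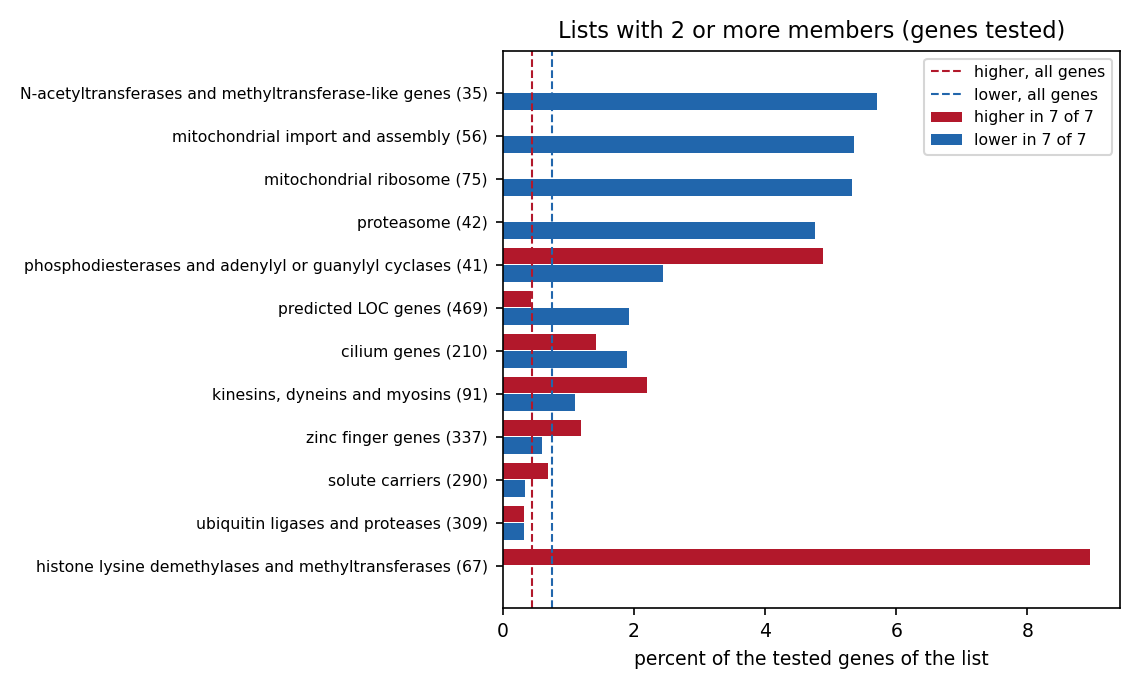
Share of the tested genes of a list (horizontal axis, percent) that were higher (red) or lower (blue) in all 7 rats, for lists with 2 or more members, with the number tested in brackets. Dashed lines are the shares over all genes, 0.448% and 0.755%. The lists of histone enzymes and of N-acetyltransferases and methyltransferase-like genes were chosen after the values were seen.

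The 3 lists of nuclear genes for oxidative phosphorylation, the mitochondrial ribosome, and mitochondrial import and assembly gave 8 lower and 0 higher members among 210 tested. The share lower was 3.81%, beside 0.755% of all genes. These lists do not hold all nuclear genes for the mitochondrion, and the lower gene Cars2 lay outside them. The 8 lower genes were Ndufa4, a subunit of cytochrome c oxidase, the mitochondrial ribosomal proteins Mrps33, Mrpl42, Mrpl46 and Mrpl16, and Timm8b, Timm21 and Timmdc1, which serve protein import and the assembly of complex I. The median differences of the 8 ran from -0.31 to -0.06. Over all 210 genes the median difference was -0.12, and 185 of them were below 0, whereas the 13 genes of the mitochondrial genome had a median of 0.06 and 0 members.

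Timm8b, a chaperone of the space between the mitochondrial membranes, had a lowest, median and highest log2 CPM of 6.19, 6.39 and 7.58 in control and 6.08, 6.33 and 6.44 in surgical libraries. The control libraries of rats A, B and E stood above all others, and the pairs of the 8-week rats differed by 0.12 or less. Ndufa4 had pair differences of -1.30, -0.99 and -0.79 in rats A, B and E and of -0.03, -0.31, -0.11 and -0.02 in rats D, C, G and H. All 8 genes had the larger median difference at 6 weeks, as did 88 of the 123 lower genes and 9645 of all 16284 genes. This was not tested. Transcripts of the 3 lists were short, with a median length percentile of 6.68 to 16.2. With a trend with transcript length removed from each library, 1 of the 210 remained lower in all 7 rats (0.476%, beside 0.393% of all genes), and the median difference was -0.05.

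Enzymes that write or remove histone lysine methylation gave 6 higher and 0 lower members among 67 tested, a share of 8.96% beside 0.448% of all genes, in a list chosen after the values were seen. Kdm1a and Kdm5b remove methyl groups from lysine 4 of histone H3, Phf8 and Kdm2a are demethylases for other lysines, Nsd1 is a methyltransferase and Prdm10 belongs to the PRDM family. Their median differences were small, from 0.10 for Kdm5b to 0.37 for Prdm10. Nsd1 stood at a lowest, median and highest log2 CPM of 4.56, 5.48 and 5.67 in control and 5.32, 5.68 and 5.82 in surgical libraries, with the control libraries of rats B and A lowest and a difference of 0.01 in rat D. Transcripts of this list were long, with a median length percentile of 83.8. With the length trend removed 2 of the 6, Kdm1a and Kdm2a, still were higher in all 7 rats (2.99% of the list, beside 0.344% of all genes), and the median difference of the list was 0.05.

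Zinc finger genes gave 4 higher (Zfp704, Zfp326, Zfp516 and Zfp952) and 2 lower members (Zfp133 and Zfp90) of 337, shares of 1.19% and 0.593%. The list of splicing and RNA-binding proteins gave 1 higher gene of 169 (0.592% beside 0.448% of all genes), Ddx6, a helicase of P-bodies, at 0.25. Srrm2, Scaf8 and Upf2, RNA-binding or RNA-processing proteins outside that list, were also higher, at 0.17, 0.11 and 0.14. They were put together after the values were seen, so no theme is read from them.

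The cilium list, matched by the pattern of the symbol and not by function, had members that went both ways. Of 210 tested, Dnah2, Dnah3 and Cfap73 were higher and Ccdc68, Ccdc159, Cfap20 and Ift46 were lower. These were shares of 1.43% and 1.9%, beside 0.448% and 0.755% of all genes. With the length trend removed 2 were higher (0.952%) and 1 lower (0.476%), beside 0.344% and 0.393% of all genes. Dnah2 and Dnah3 are axonemal dynein heavy chains at very low level here, with control means of 0.0926 and 0.031 TPM. Dynlt2b, a dynein light chain, was lower by a median of 0.26. In the list of phosphodiesterases and cyclases Pde6b and Pde4a were higher and Pde6d was lower, of 41 tested (4.88% and 2.44%).

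The proteasome list held 2 lower members of 42 tested (4.76%, beside 0.755% of all genes). They were Psma2, a core subunit, and Psmg3, an assembly chaperone, at -0.22 and -0.18. With the length trend removed 0 of the 42 were lower in all rats. The list of ubiquitin ligases and proteases was likewise matched by the pattern of the symbol and not by function. It gave 1 lower and 1 higher gene of 309 (0.324% each, below the shares over all genes): Ube2l6, a conjugating enzyme for the ubiquitin-like protein Isg15, at -0.27, and Usp6nl at 0.23. Single genes outside any of these lists were also lower, among them Chmp3 and Vta1 of the ESCRT machinery at -0.24 and -0.07 and the carbonyl reductases Cbr3 and Cbr4 at -0.60 and -0.36, picked by eye after the values were seen, so no theme is read from them. Solute carriers gave Slc9a5 and Slc44a1 higher and Slc66a3 lower of 290 tested (0.69% and 0.345%, near the shares over all genes). Lists with a single member held Kcnh4 or Cdh17 on the higher side and Ebp, Atp6v0b or Pfdn5 on the lower side.

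Lists of the known injury response and of nociceptors are short, and at 1.2% over all genes a count of 0 in each is near the background. Of 31 axon injury and regeneration genes 0 kept one sign in all rats, with a median difference of 0.24 and 24 above 0. The 14 peptidergic and 18 non-peptidergic nociceptor genes had medians of -0.09 and -0.37 and 0 members, as had the 36 sodium and calcium channel genes and the 82 genes of the cytosolic ribosome. Vip, a neuropeptide gene of injured sensory neurons, was higher in 6 of 7 rats by a median of 4.43 and was kept out by rat C, at -0.18.

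Transcript length separated the classes. Relative length was taken from the ratio of count to TPM and ranked over all genes tested. The higher genes had a median percentile of 84.9 and the lower genes one of 19.4. In the longest 25% of genes lay 43 of the 73 higher (58.9%) and 2 of the 123 lower genes, and in the shortest 25% were 6 of the higher and 79 of the lower (64.2%). Over 4 bins of equal size, from the shortest to the longest, the share of genes that were higher in all rats was 0.147%, 0.172%, 0.418% and 1.06%, and the share lower was 1.94%, 0.835%, 0.197% and 0.0491%.

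**Figure D5:**
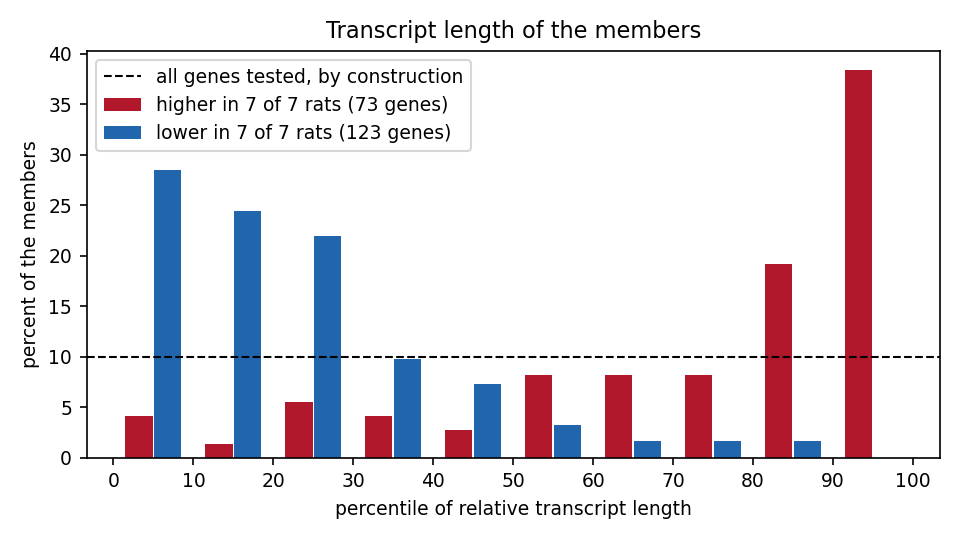
Percent of the 73 higher (red) and 123 lower (blue) genes in bins of 10 percentile points of relative transcript length (horizontal axis, percentile among all genes tested). The dashed line at 10 is the share of all genes. Lower genes crowd the short end and higher genes the long end.

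Across all genes the rank correlation of length with the median pair difference was 0.25, a description over genes that share libraries. In single rats it was 0.07, 0.30 and 0.33 in rats A, B and E and 0.08, -0.10, -0.06 and 0.17 in rats D, C, G and H. With the length trend removed from each library, 56 genes were higher and 64 lower in all 7 rats, of which 38 and 41 were among the 73 and 123. Their median length percentiles were 48.1 and 37.2. Levels also differed between the classes, with a median of 2.9 TPM among the higher and 20.3 TPM among the lower genes beside 8.47 TPM over all genes.

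Protein-coding genes made up 67 of 68 higher and 108 of 112 lower genes with a RefSeq type, beside 98.6% of all genes. Among the matched members 3 pairs were direct neighbours, Snx7 with Dpyd, Uck1 with Swi5 and Tmem205 with Ccdc159. Each pair was lower on the surgical side and without overlap of the gene models. Gene models of 35 higher and 36 lower matched genes overlapped another gene, and whether counting used the strand is not given in the sources used here. The shares of neighbours and of overlaps over all genes were not computed, so nothing is read from these counts.

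Rats differed in how strongly they showed the pattern. The median difference of the 73 higher genes was 0.24, 0.63 and 0.26 in rats A, B and E and 0.13, 0.50, 0.23 and 0.19 in rats D, C, G and H. For the 123 lower genes it was -0.39, -0.40 and -0.31 and then -0.11, -0.39, -0.22 and -0.15. Rat D was the weakest pair for 22 higher and 42 lower genes, and rats B and C the largest for 28 and 23 of the higher genes. Among the lower genes the largest pair was that of rat C for 36, rat B for 31 and rat A for 30. The spread over all genes was widest in the same rats B and C, with a median absolute difference of 0.53 and 0.65 beside 0.17 in rat D. By time, the median difference of the higher genes was 0.30 at 6 and 0.25 at 8 weeks, and that of the lower genes -0.34 and -0.17, which was not tested.

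Time was tested on a measure that the choice of genes did not use, the sum of both libraries of each rat, between 3 rats at 6 weeks and 4 other rats at 8 weeks. By edgeR's quasi-likelihood test with Benjamini-Hochberg adjustment over all 16284 genes, 17 genes were lower at 8 weeks (0.104%) and 0 were higher (0%), with 4490 genes at an unadjusted p under 0.05. The members included 1 of the 17, Pfdn5, a subunit of the prefoldin chaperone, with a log2 difference of -1.25 (SE 0.12, adjusted p = 0.0435). Its log2 CPM was 7.85, 8.33 and 7.68 in the control libraries and 7.57, 6.62 and 6.99 in the surgical libraries of rats A, B and E. At 8 weeks it lay between 6.22 and 6.53 in all 8 libraries, below each of the 6-week libraries. This call was lost in several alternatives, with adjusted p from 1.38e-20 with DESeq2 to 0.262. DESeq2 called 2594 genes and limma on log2 TPM called 0, and edgeR called 6302 without rat E and 0 without any 1 of the other rats (A, B, D, C, G or H).

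For the sides themselves, edgeR's quasi-likelihood test with the rat as a block gave 0 of 16284 genes (0%) at an adjusted p under 0.05 and 384 at an unadjusted p under 0.05, DESeq2 with the same block gave 6 and limma 0. The 6 included Stac2, Pde6b and Rgs10 of the genes described here, and nothing is read from this because the same contrast chose them.

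Which genes kept one sign depended on the scaling. With deposited TPM 42 of the 196 were kept, with total counts 112, with DESeq2 size factors 166, with the neuronal level removed 104 and with the length trend removed 79. In all 5 of these settings 19 genes kept their sign: Stac2, Pde6b, Draxin, Cdh17, Vangl2, Qser1 and ENSRNOG00000066281 on the higher side, and Ccl19, C10h17orf67, Clec12b, LOC102555109, Actg2, Cyp11b3, Skap1, RGD1562660, Ccdc68, B3galnt1, Ube2l6 and Smim3 on the lower side. This count was made after the values were seen. In TPM Rgs10 and Cops9 turned in rat B, Thap2 in rat A, and Nedd8 and Mettl21a in rats B and H.

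At the edge of the rule the differences were close to 0. Just inside lay Asap2 (4.3e-05 in rat D), Sbno2 and Mastl on the higher side and Tmem205, Tmem192 and Etfdh on the lower side. Just outside lay Syne1, Zfp407 and Prrc2c, each higher in 6 of 7 rats, and Strn3, Tmem70 and Tusc3, each lower in 6 of 7, with contrary pairs of 0.0035 or less.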

How the data were processed

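RNA of 14 ganglion libraries was sequenced. The authors deposited estimated counts per gene and TPM, made with FastQC, Trim Galore and Salmon per the submitters' processing notes, which also name DESeq2; versions, genome build and counting strand are not given in the sources used here. Deposited estimated counts were all whole, so no rounding was needed. Per the labels the molecule was polyA RNA, while the protocol names ribosomal depletion; the labels do not settle which. Groups and rats came from the titles; the library names exchange the letters C and D on both sides, which leaves pairs intact, and the surgical library of rat C, titled replicate 1, was used as replicate 2. No pair of libraries agreed within sampling noise (lowest chi-square per degree of freedom 17.8).

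Log2 CPM (edgeR 4.0.16, R 4.3.3, TMM, prior count 2) gave the pair differences for genes with at least 10 counts in at least 7 libraries. The members and lists were chosen with earlier results of these data known. The sides were fitted with edgeR's quasi-likelihood test and the rat as a block, and the times on counts summed per rat, with Benjamini-Hochberg adjustment over 16284 genes; scripts were tested on simulated data. Pairing comes from the shared animal; deviations of the sides of a rat from their group means correlated between -0.44 and 0.78. Named genes carried a symbol and averaged 1 TPM or more: on each side the 12 with the largest weakest pair and the 6 with the largest median, plus up to 4 per list; Pde6b, Draxin, Vangl2, Galr2, the genes without overlap between the sides, those beyond counting error and 2 of the lists were chosen after their values were seen. The precision of each library is set by 18489118 to 28237574 counts. Alternatives were DESeq2 1.42.0, limma 3.58.1 on log2(TPM + 0.1), other scalings, prior counts and filters, removal of a lowess length trend (span 0.3) or of the neuronal level, and leaving out rats; leaving out rats A and B was chosen after seeing the data.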

Additional observations from a re-analysis of the deposited data

Results flagged for a closer look

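In 5 of the 27 named genes the pair difference of 1 rat stood apart from the other 6 by Dixon's criterion at 95%. Cdk18 was 3.2 higher on the surgical side of rat B and Thada 0.41 higher in rat B. Rgs10 was at -1.26 and Rbp2 at -1.84 in rat A, and B3galnt1 at -1.48 in rat C. Rats A and B are those with the largest differences in neuronal level between the sides (-1.76 and 1.21), rat B also had the largest difference in spinal cord markers (4.42), and rat C that in muscle markers (8.17); the part of these in the single values was not tested. Chance flags about 1 in 20 groups. Of all 16284 genes 10.4% were flagged, and of the 196 members 34 (17.3%).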

How the results depend on the processing

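The count of genes with one sign in all rats, 196, changed by more than 1.5 times with the unit, the length trend and the number of rats. With deposited TPM it was 121 (41 higher, 80 lower), with the length trend removed 120 (64 lower). Leaving out each rat in turn asks for 6 agreeing pairs in place of 7 and so gives more genes by construction, 272 to 528 (103 to 217 higher, 156 to 328 lower), and 4 pairs without rats B, C and H gave 2641 (879 higher, 1762 lower); 5 pairs without rats A and B gave 525 (225 higher, 300 lower). Share by direction moved with the scaling: total counts gave 58 higher and 135 lower, DESeq2 size factors 85 and 109. In TPM the median of all genes shifted by -0.43 in rat C to 0.69 in rat B, beside -0.06 to 0.08 with TMM. The neuronal correction gave 267 genes and no filter 250. Among 480 values of the median difference of the 27 named genes none reversed, and 7 moved by more than the spread between rats (Sncg and Ankrd16 in TPM and without the length trend, Syne3 by total counts and without the length trend, Ccl19 without rats B, C and H). Settings that only left out rats could not reverse a median, because all pairs of these genes share one sign.

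For the sides, no replicate block gave 0 genes as did the fit with the block, and DESeq2 gave 6. For time, the 17 genes and 1 member became 2594 and 18 with DESeq2, 1 and 0 without a filter, and 0 and 0 with DESeq2 size factors, with limma on log2(TPM + 0.1) or log2(TPM + 1), and with the length trend removed. Leaving out each rat gave 0 to 6302 genes and 0 to 31 members; the high values came without rat E and each other rat left out gave 0. The cause was not tested. Low counts limit Pde6b (1 to 91 per library) and C10h17orf67 (2 to 36).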
